A study of Rattus norvegicus with 12 samples.

Results

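The response of GN5 cells to rapamycin was described across all genes of a rat bead array. GN5 is a tumorigenic line made from WB-F344, a liver epithelial line of the Fischer rat, with the carcinogen N-methyl-N'-nitro-N-nitrosoguanidine, and its labelled response to rapamycin was intermediate. The arrays were chosen by their titles: 3 GN5 arrays with rapamycin (50 nM, 24 h) and 3 with the dimethyl sulfoxide vehicle over the same 24 h, or 6 of the 12 arrays of the study. All 6 came from cells in DMEM/F12 with serum and glutamine, and RNA was taken from triplicate plates, so p-values measure the spread between plates of 1 line. The other 6 arrays held H5D, a line from an azo-dye induced hepatocellular carcinoma of the Fischer rat grown in Waymouth medium, with the same 2 treatments, dose and time. Medium and line cannot be told apart where the lines are compared.

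Rapamycin binds the immunophilin FKBP12, and the complex inhibits the kinase mTOR, mostly within its complex mTORC1. Through mTORC1, amino acids and growth factors promote translation, ribosome production and lipid and nucleotide synthesis, and restrain autophagy. In liver cells this pathway is known for its part in growth and regeneration.

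Signals were background corrected and quantile normalized on the log2 scale, so a difference of 1 is a doubling. A detection p of at most 0.01 marked a probe as present on an array, and probes present on the 3 vehicle or the 3 rapamycin arrays were tested. Changes are given as rapamycin minus vehicle with the standard error (SE) of the limma fit over the 6 arrays. A gene was called at a Benjamini-Hochberg adjusted p below 0.05 over all probes tested, and the brightest tested probe stood for a gene. The array shows RNA per unit of total RNA, so fewer cells of a kind and less RNA per cell cannot be told apart.

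The GN5 arrays detected 7427 to 8038 of 22523 probes. Raw median signals were 105.859 and 96.172 on vehicle replicates 2 and 3, and 76.05 to 82.70 on the other 4. Vehicle replicate 1 lay closest to the rapamycin arrays. On the first principal component (50.0% of the variance) it was at 3.70, against 12.07 and 14.45 for the other vehicle arrays and -11.49 to -8.37 for the rapamycin arrays. It was the vehicle array nearest to the rapamycin mean for 282 of the 515 called probes (54.8%), and for 44.1% of all tested probes. Results are therefore given with and without it, and also without vehicle replicates 2 and 3. Of 7 hepatocyte markers on the array, Tf was detected and 6, including Alb, Afp and Hnf4a, were detected on no GN5 array. The summed hepatocyte level was 8.32 to 8.56 on vehicle and 8.53 to 8.77 on rapamycin arrays, on the log2 scale. Of 6 biliary and progenitor markers, Krt7, Krt8 and Cd24 were detected, while Krt19, Epcam and Prom1 were not (summed level 13.07 to 13.13 with vehicle, 12.79 to 12.90 with rapamycin). Vim, Col1a1 and Col3a1 were detected among 5 mesenchymal markers (13.57 to 13.75 and 13.38 to 13.49), and Msln and Wt1 among 3 mesothelial ones (12.69 to 12.93 and 13.07 to 13.16). None of 3 endothelial markers was detected, and Cd14 alone was detected among 3 leukocyte markers (7.73 to 8.10 and 8.08 to 8.22). The part of these markers in the results was not tested.

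Rapamycin changed a small share of the genes that GN5 cells express, about as many up as down. Of 7449 probes tested, 515 were called (6.91%), 257 higher and 258 lower. By gene, 201 of 5514 were higher (3.65%) and 190 lower (3.45%), and 118 of the 1846 tested probes without a gene symbol were called as well. Changes were modest. The median fold was 1.41 among called rises and 1.44 among called falls, the smallest called fold was 1.26 and the largest 3.18. Only 23 called probes changed at least 2-fold, 9 higher and 14 lower, and 173 at least 1.5-fold, 76 higher and 97 lower. Over all tested genes the log2 fold change had a median of 0.002, and the median SE over probes was 0.108.

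The 2 groups of arrays did not overlap for 512 of the 515 called probes. Over all tested probes this was so for 2068, or 27.8%. Calls were spread over the range of signal: 74 of the 745 dimmest probes were called (36 higher, 38 lower) and 31 of the 745 brightest (13 higher, 18 lower). Leaving out vehicle replicate 1 raised the number of calls to 934, and 485 of the 515 remained called. Without vehicle replicate 2 the number was 164, and without rapamycin replicate 1, 2 or 3 it was 266, 182 or 190. Without vehicle replicates 2 and 3 together it was 156, and 123 of the 515 remained called, although all 515 kept their direction there and in each fit that left out 1 array. For the 512 probes whose groups did not overlap, leaving out arrays could not have changed the direction. In all 6 fits that left out 1 array, 135 probes stayed called. With arrays scaled to a common median in place of quantiles, the median change of all probes moved from 0.01 to -0.14, and 103 probes were called higher and 754 lower. Directions below are thus relative to the other genes of the same array.

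**Figure D1:**
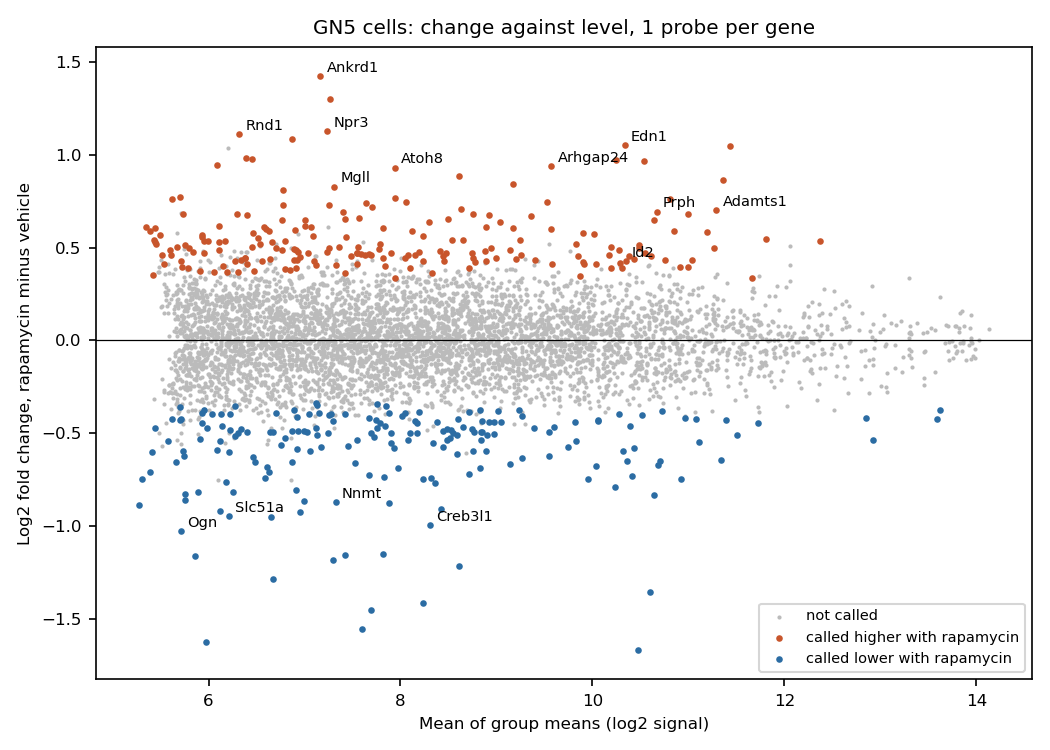
Log2 fold change (rapamycin minus vehicle, y axis) against the mean log2 signal of both GN5 groups (x axis), with 1 point per gene and called genes in colour. The 201 rises and 190 falls lie over the whole range of signal, and most are smaller than 1 on the log2 scale.

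Regulators of the actin cytoskeleton were among the largest rises outside the well studied stress genes. Rnd1, which loosens actin fibres, was at 5.57, 5.72 and 6.00 with vehicle and at 6.75, 6.90 and 6.96 with rapamycin (log2 signal). All 3 rapamycin arrays lay above the vehicle arrays, and the gene rose 2.16-fold (1.11, SE 0.12, adjusted p = 0.00042). Arhgap24, which switches off Rac, was at 9.17, 9.12 and 9.02 with vehicle and at 10.02, 10.11 and 9.99 with rapamycin. The groups were far apart beside their own spread (0.94, SE 0.095, adjusted p = 0.00026). Of 61 actin binding and contractile genes, 4 rose (6.56%, where 3.65% of all genes were called higher) and 0 fell, with a median of 0.02. Under scaling to a common median, 4 genes of this list were called higher and 7 lower (median -0.15). Transgelin (Tagln), an actin binding protein of contractile cells, rose by 0.68 (SE 0.11), the LIM protein Fhl1 by 0.60 (SE 0.10), caldesmon (Cald1) by 0.76 (SE 0.14) and the actin crosslinker Actn1 by 0.56 (SE 0.12). Cald1 lost its call in the fit without vehicle replicate 2 (adjusted p = 0.056), and Actn1 in those without vehicle replicate 2 (0.063), rapamycin replicate 1 (0.051) and rapamycin replicate 2 (0.076). Without vehicle replicates 2 and 3, Cald1 was at 0.47 (0.13) and Actn1 at 0.58 (0.095), while Rnd1, Arhgap24, Tagln and Fhl1 stayed called. Of 44 genes of tubulins, kinesins and microtubules, limma and the methods' t-test called none, while 3 higher and 7 lower had an unadjusted p below 0.05. In the fit without vehicle replicate 1, 2 of them rose and 3 fell.

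Calls in the list of extracellular proteases were all rises, and most of its members were not called. Of 38 tested proteases, ADAMs and protease inhibitors, 6 were called higher and 0 lower, where 3.65% of all genes were called higher. In this list 31 had a positive change, and the median was 0.17. Under scaling to a common median, 2 were called higher and 1 lower, and the median was 0.03. Pcsk6, a convertase that activates precursors of the TGF-beta family, was at 7.4, 7.33 and 7.29 with vehicle and at 8.05, 8.01 and 8.12 with rapamycin. The 2 groups did not overlap, and Pcsk6 rose 1.65-fold (0.72, SE 0.092, adjusted p = 0.00109). Adamts1, which cleaves matrix proteoglycans, was at 11.12, 10.98 and 10.73 with vehicle and at 11.49, 11.71 and 11.72 with rapamycin (0.70, SE 0.12, adjusted p = 0.0056). The list also held complement C4b (0.71, SE 0.13) and the thrombin receptor F2r (0.65, SE 0.12), which proteases cleave. C4b lost its call in the fits without vehicle replicate 2 (adjusted p = 0.057) and rapamycin replicate 3 (0.056), and F2r in those without vehicle replicate 2 (0.057) and rapamycin replicate 2 (0.054). In the fit without vehicle replicates 2 and 3, Pcsk6 alone of these stayed called, and Adamts1 was at 0.53 (0.079), C4b at 0.45 (0.14) and F2r at 0.43 (0.15). Carboxypeptidase A6 (Cpa6), outside the list, was at 5.95, 5.98 and 5.94 with vehicle and at 6.65, 6.70 and 6.57 with rapamycin (0.68, SE 0.092, adjusted p = 0.00147).

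Genes of the matrix itself moved both ways. Among 43 collagens, elastic fibre and matricellular genes, 5 rose and 6 fell (25.6% called, against 6.91% of all tested probes), with a median of 0.08. Osteoglycin (Ogn), a small leucine-rich proteoglycan, was at 6.13, 6.3 and 6.24 with vehicle and was detected on all 3 of those arrays. With rapamycin it was at 5.10, 5.10 and 5.39 and was detected on none, so it was at least 1.59-fold lower (adjusted p = 0.000377). Lysyl oxidase-like 2 (Loxl2), which crosslinks collagen, fell by 0.86 (SE 0.14) and was detected on 1 of 3 rapamycin arrays. The proteoglycans lumican (Lum, -0.71, SE 0.11) and decorin (Dcn, -0.67, SE 0.11) and the collagen chain Col1a1 (-0.75, SE 0.12) also fell. In the other direction, the elastic fibre proteins Ltbp2 (1.05, SE 0.16) and Ltbp4 (0.59, SE 0.097) rose, as did the matrix protein tenascin-N (Tnn, 0.68, SE 0.094) and integrin alpha 1 (Itga1, 0.65, SE 0.11), a collagen receptor. Each of these 9 genes stayed called without any 1 array. When vehicle replicates 2 and 3 were left out, the calls of Col1a1 (-0.57, adjusted p = 0.091), Ltbp4 (0.51, 0.076) and Itga1 (0.52, 0.084) ended. Among enzymes that build or trim sugar chains of matrix and surface proteins, 4 of 31 rose and 0 fell (median 0.10). That is 12.9%, where 3.65% of all genes were called higher. Under scaling to a common median, 2 were called higher and 1 lower. The rises were led by the sialyltransferase St6gal1 (0.65) and the chondroitin synthase Chsy1 (0.58). These 2 calls ended without rapamycin replicate 3 (adjusted p = 0.059 and 0.062), St6gal1 also without vehicle replicate 2 (0.055) and Chsy1 without rapamycin replicate 1 (0.055). With vehicle replicates 2 and 3 both left out, they were at 0.48 (0.14) and 0.57 (0.061).

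Creb3l1, a membrane-bound transcription factor of the endoplasmic reticulum that is known to drive collagen and secretory genes, fell. Of the collagens, Col1a1 fell too, while Col3a1 (-0.15, adjusted p = 0.465) was not called, and a link to Creb3l1 was not tested. Creb3l1 was at 8.71, 8.75 and 8.95 with vehicle and at 7.81, 7.76 and 7.85 with rapamycin. The lowest vehicle array lay well above the highest rapamycin array, a 1.99-fold fall (-0.99, SE 0.10, adjusted p = 0.00026). Of 52 genes of COPI, COPII and Golgi trafficking, Creb3l1 and Cope fell, Ergic2 and Trappc2 rose, and the median was -0.08. This share of 7.69% was near the 6.91% of all tested probes that were called. Creb3l1 kept its call without each array, while the other 3 kept theirs without vehicle replicate 1 only (adjusted p = 0.055 to 0.17 without another array, 0.22 to 0.36 without vehicle replicates 2 and 3). Of 50 genes of the translocon and N-glycosylation 2 fell, a share of 4.0% near the 3.45% of all genes called lower, and 0 rose. Among the 2 was Srp54a (-0.82, SE 0.12), a subunit of the signal recognition particle that was detected on 1 of 3 rapamycin arrays. Ostc, the other one, fell by 0.44 (SE 0.098). Its call ended without rapamycin replicate 2 (adjusted p = 0.082) or 3 (0.097), and without vehicle replicates 2 and 3 (-0.49, 0.079).

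**Figure D2:**
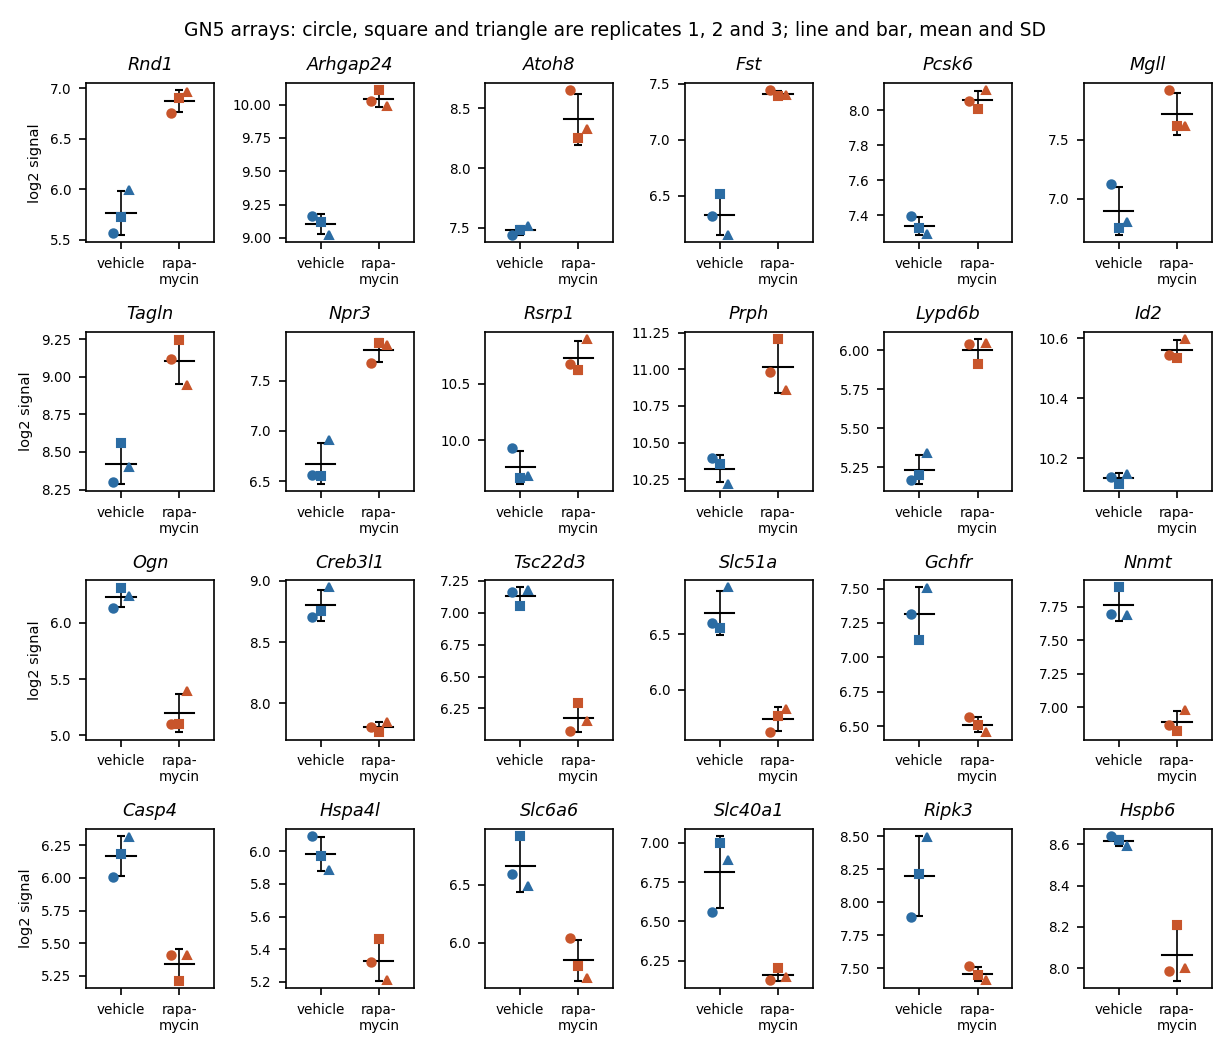
Log2 signal on each of the 6 GN5 arrays (y axis of each panel, with its own range) by treatment (x axis), for 24 called genes. Circle, square and triangle mark replicates 1, 2 and 3, and the line and bar give mean and SD. The groups do not overlap for any gene shown, Rnd1 for example lying at 6.00 or less with vehicle and at 6.75 or more with rapamycin.

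Among 16 genes of the BMP and activin pathway, 3 rose and 1 fell, 13 had a positive change, and the median was 0.24. Over all genes, 3.65% were called higher and 3.45% lower. Under scaling to a common median, 1 gene of this list was called higher and 1 lower, and the median was 0.1. Follistatin (Fst), which binds activin, had the largest rise of the list at 1.09 (SE 0.11). The receptor Acvr2b (0.50, SE 0.12) and the BMP binding protein Bmper (0.44, SE 0.11) rose, and the BMP antagonist Nbl1 fell by 0.41 (SE 0.098). Each of the last 3 depended on vehicle replicate 2 for its call (adjusted p = 0.11, 0.14 and 0.074 with that array left out) and on rapamycin replicate 2 (0.12, 0.15 and 0.12). Acvr2b and Nbl1 also lost theirs without vehicle replicate 3 (0.077 and 0.077) or rapamycin replicate 1 (0.11 and 0.071), and all 3 theirs without rapamycin replicate 3 (0.052, 0.11 and 0.10) and without vehicle replicates 2 and 3 (0.31, 0.49 and -0.36, adjusted p = 0.32, 0.13 and 0.19).

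Outside that list, the inhibitory Smads, which restrain signals of the TGF-beta family, rose. Smad6 was at 8.2, 8.29 and 8.0 with vehicle and at 8.83, 9.14 and 9.18 with rapamycin, and Smad7 at 6.43, 6.35 and 6.34 with vehicle and at 7.10, 7.21 and 7.24 with rapamycin. The groups did not overlap for either, and both stayed called without each array and without vehicle replicates 2 and 3.

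Transcription regulators of the helix-loop-helix, HES and ID families were called in both directions. Atoh8, outside the list of these, a helix-loop-helix factor, was at 7.44, 7.48 and 7.51 with vehicle and at 8.65, 8.25 and 8.32 with rapamycin. The vehicle arrays lay close together and all rapamycin arrays above them (0.93, SE 0.12, adjusted p = 0.000877). Id2, which blocks helix-loop-helix factors, was at 10.14, 10.11 and 10.15 with vehicle and at 10.55, 10.53 and 10.60 with rapamycin. Its rise was small but the groups were narrow (0.43, SE 0.090, adjusted p = 0.0172). Id1 rose by 0.57 (SE 0.11), Id3 was at 0.10 (adjusted p = 0.69) and was not called, and the Notch target Hes1 was at least 1.23-fold lower (adjusted p = 0.023) and undetected on the rapamycin arrays. Id2 lost its call in the fits without vehicle replicate 2 (adjusted p = 0.074) and rapamycin replicates 1 (0.053), 2 (0.063) and 3 (0.083). The Id1 call ended without rapamycin replicate 1 (0.058) or 2 (0.059). Hes1 lost its call in the fits without vehicle replicate 2 (0.057) and rapamycin replicates 1 (0.062), 2 (0.072) and 3 (0.099). Without vehicle replicates 2 and 3 the log2 fold changes were 0.42 (0.12) for Id2, 0.59 (0.073) for Id1 and -0.40 (0.15) for Hes1. In all, 2 of 16 helix-loop-helix, HES and ID factors were called higher and 1 lower (18.75% called, against 6.91% of all tested probes).

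Among 20 genes of the cyclic nucleotide and protein kinase A system 4 rose, 1 fell and 15 were not called (median 0.10). Npr3, the clearance receptor of natriuretic peptides, rose by 1.13 (SE 0.12). Akap5, which anchors protein kinase A at the membrane, was at 5.55, 5.28 and 5.13 with vehicle, where 1 of 3 arrays detected it, and at 5.93, 6.24 and 6.11 with rapamycin, where all 3 did. It rose by 0.77 (SE 0.13, adjusted p = 0.00416). Pde7a, a phosphodiesterase that degrades cyclic AMP, was at 8.36, 8.08 and 8.07 with vehicle and at 8.81, 8.79 and 8.88 with rapamycin (0.66, SE 0.11, adjusted p = 0.00418). The transcription factor Creb1, which protein kinase A activates, fell by 0.59 (SE 0.12). Creb1 lost its call in the fits without vehicle replicate 2 (adjusted p = 0.07) and rapamycin replicates 2 (0.064) and 3 (0.055). In the fit without vehicle replicates 2 and 3, Akap5 (0.54, adjusted p = 0.079), Pde7a (0.46, 0.092) and Creb1 (-0.48, 0.15) were not called. Of 33 G protein coupled receptors, G proteins and RGS genes, 2 rose and 3 fell, with a median of 0.16. That is 15.2% of the list, against 6.91% of all tested probes. Under scaling to a common median, 0 were called higher and 4 lower, and the median was -0.02. Rgs2, which shortens the signal of Gq, was at 9.17, 8.83 and 9.06 with vehicle and at 8.43, 8.53 and 8.60 with rapamycin (-0.49, SE 0.11, adjusted p = 0.0226). Its call ended without rapamycin replicate 1 (0.082), 2 (0.081) or 3 (0.059). Among 23 receptor tyrosine kinases and growth factor ligands 4 rose and 0 fell (median 0.07). That is 17.4%, where 3.65% of all genes were called higher. Under scaling to a common median, 1 was called higher and 1 lower. The 4 rises were of the neurotrophin Bdnf (0.98), the collagen receptor Ddr1 (0.46), the insulin receptor substrate Irs1 (0.47) and the ligand Tgfa (0.43). Bdnf kept its call without each array and without vehicle replicates 2 and 3. The other 3 lost theirs without vehicle replicate 2 (adjusted p = 0.097 for Ddr1, 0.19 for Irs1, 0.17 for Tgfa), without rapamycin replicate 2 (0.098, 0.17 and 0.13) or 3 (0.088, 0.16 and 0.15), and, for Irs1 and Tgfa, without rapamycin replicate 1 (0.063 and 0.091) or vehicle replicate 3 (0.11 and 0.10). When vehicle replicates 2 and 3 were left out, they were at 0.53 (0.073), 0.20 (0.53) and 0.20 (0.49).

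Most genes of RNA processing and the cell cycle were not called. Among 64 SR proteins, hnRNPs and splicing factors, 3 rose and 0 fell (median 0.07), a share of 4.69% near the 3.65% of all genes that were called higher. Clk1, a kinase that phosphorylates SR proteins, was at 8.97, 8.80 and 8.86 with vehicle and at 9.43, 9.36 and 9.64 with rapamycin (0.60, SE 0.11, adjusted p = 0.00676). With vehicle replicates 2 and 3 both left out, it was at 0.51 (0.095). The called members among 30 cyclins and cyclin-dependent kinases were Ccnl1 (0.50), Ccnl2 (0.41) and Ccng2 (0.48). They were 10.0% of that list, where 3.65% of all genes were called higher. Ccnl1 and Ccnl2 encode cyclins L, which act in splicing, and Ccng2 encodes a cyclin of non-dividing cells. Each of the 3 calls ended without rapamycin replicate 1 (adjusted p = 0.051, 0.077 and 0.11) or 2 (0.061, 0.12 and 0.082). Those of Ccnl2 and Ccng2 also ended without rapamycin replicate 3 (0.074 and 0.084) or vehicle replicate 2 (0.059 and 0.14), and that of Ccnl2 without vehicle replicate 3 (0.063). Without vehicle replicates 2 and 3 they were at 0.49 (0.078), 0.46 (0.098) and 0.34 (0.27). Cables1, which links cyclin-dependent kinases to other kinases, was detected on all 3 rapamycin arrays and no vehicle array, and was at least 1.10-fold higher (adjusted p = 0.00402). Gadd45g, a growth arrest gene, was at 8.66, 8.77 and 8.73 with vehicle and at 9.36 on each rapamycin array (0.64, SE 0.091, adjusted p = 0.0021), while its relative Gadd45a fell by 0.73 (-0.54, adjusted p = 0.073, without vehicle replicates 2 and 3).

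Other large rises were of genes with diverse roles. Endothelin-1 (Edn1), a vasoconstrictor peptide, was at 9.77, 9.81 and 9.85 with vehicle and at 10.92, 10.70 and 10.97 with rapamycin (1.05, SE 0.10), and kept its call without each array. Monoacylglycerol lipase (Mgll), which releases fatty acids from monoglycerides, was at 7.13, 6.75 and 6.8 with vehicle and at 7.92, 7.62 and 7.62 with rapamycin (0.83, SE 0.13, adjusted p = 0.00326). Vehicle replicate 1 was the highest of the vehicle arrays, and without the other 2 Mgll was at 0.59 (0.071). Rab17, a small GTPase of epithelial endosomes, was at 5.55, 5.41 and 5.89 with vehicle, where 2 of 3 arrays detected it, and at 6.67, 6.47 and 6.55 with rapamycin (0.95, SE 0.13, adjusted p = 0.00145). Peripherin (Prph), an intermediate filament protein known from neurons, was at 10.40, 10.35 and 10.22 with vehicle and at 10.98, 11.21 and 10.86 with rapamycin (0.69, SE 0.11, adjusted p = 0.00402). Edn1, Mgll, Rab17 and Prph had groups that did not overlap, and Prph was at 0.62 (0.062) without vehicle replicates 2 and 3. Carbonic anhydrase 3 (Car3) rose by 0.74 (SE 0.12), Slfn4 of the schlafen family by 0.74 (SE 0.11), the receptor for autophagy of the endoplasmic reticulum Ccpg1 by 0.73 (SE 0.11), the lysosomal sorting receptor Igf2r by 0.69 (SE 0.11) and the retinol dehydrogenase Rdh14 by 0.61 (SE 0.092). Glipr1 (0.75), Cacfd1 (0.77), Neurl2 (0.73) and Sertad4 (0.84) rose as well, and these 9 genes kept their calls without each array. In the fit without vehicle replicates 2 and 3, Igf2r (0.60, adjusted p = 0.066) and Rdh14 (0.54, 0.056) were not called.

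Some of the named falls were of metabolic genes, while most members of the metabolism lists were not called. Among 29 genes of fatty acid oxidation and ketone metabolism 1 rose and 1 fell, and among 23 glycerolipid genes 1 rose and 1 fell. Among 17 retinoid, aldehyde and steroid genes 2 rose and 1 fell, and among 13 polyamine, urea and creatine genes 2 fell. These were 6.90%, 8.70%, 17.6% and 15.4% of the lists, where 6.91% of all tested probes were called. In the fatty acid oxidation list 7 genes had a positive change, and the median was -0.14. Of its genes, 1 higher and 9 lower had an unadjusted limma p below 0.05. For the glycerolipid list (median -0.10) these were 1 higher and 6 lower. Under scaling to a common median, 0 were called higher and 7 lower in the first list, and 1 higher and 6 lower in the second. Neither limma nor the methods' t-test called any of 21 genes of amino acid catabolism, of which 4 lower had an unadjusted p below 0.05. Nicotinamide N-methyltransferase (Nnmt) was at 7.69, 7.89 and 7.69 with vehicle and at 6.87, 6.83 and 6.98 with rapamycin, a 1.83-fold fall (-0.87, SE 0.10, adjusted p = 0.000598). Gchfr, the feedback regulator of tetrahydrobiopterin synthesis, was at 7.32, 7.12 and 7.51 with vehicle and at 6.57, 6.51 and 6.46 with rapamycin (-0.81, SE 0.11, adjusted p = 0.00177). In both, every rapamycin array lay below every vehicle array. Aldh18a1, an early enzyme of proline synthesis, fell by 0.91 (SE 0.11), monoamine oxidase A (Maoa) by 0.69 (SE 0.12) and mitochondrial arginase (Arg2) by 0.56 (SE 0.096). Cystathionine beta-synthase (Cbs) was at least 1.09-fold lower and undetected on the rapamycin arrays (adjusted p = 0.00395). Of 29 genes of purine and pyrimidine synthesis 1 rose and 3 fell (13.8% of the list, median -0.04), none of them in all 6 fits. When vehicle replicates 2 and 3 were left out, the calls of Arg2 (-0.45, adjusted p = 0.10) and Cbs (-0.65, 0.062) ended.

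Few membrane transporters were called. Of 43 solute carriers outside those of amino acids, glucose and mitochondria, Slc6a6 and Slc27a1 fell and 0 rose, a share of 4.65% near the 3.45% of all genes that were called lower. Slc51a, which is outside that list and is a subunit of the organic solute transporter that exports bile acids, was at 6.6, 6.55 and 6.92 with vehicle and at 5.62, 5.77 and 5.83 with rapamycin. The groups did not overlap (-0.95, SE 0.12, adjusted p = 0.000877). The taurine transporter Slc6a6 was at 6.59, 6.92 and 6.49 with vehicle and at 6.04, 5.80 and 5.69 with rapamycin (-0.82, SE 0.13, adjusted p = 0.00409). The iron exporter ferroportin (Slc40a1) was at 6.56, 7.0 and 6.89 with vehicle and at 6.13, 6.20 and 6.15 with rapamycin (-0.66, SE 0.12, adjusted p = 0.00806). Vehicle replicate 1 was the lowest vehicle array for Slc40a1. The biliverdin reductase Blvrb, the other called gene of 25 in the iron, heme and copper list, fell by 0.74 (SE 0.15). Slc40a1 lost its call when vehicle replicate 2 was left out (-0.56, adjusted p = 0.053), and Blvrb in the fits without that array (-0.66, 0.076) and rapamycin replicate 3 (-0.67, 0.063). With vehicle replicates 2 and 3 both left out, Slc40a1 was at -0.40 (0.14) and Blvrb at -0.39 (0.21).

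With all 6 arrays, calls in the lists of cell death, chaperone and antigen presentation genes were all falls. Most members of each list were not called, and 3.45% of all genes were called lower. In the fit without vehicle replicate 1, the chaperone list had 2 genes called higher and 3 lower. With the authors' deposited quantile-normalized values, the apoptosis list had 1 called higher and 5 lower. Among 46 BCL2 family, caspase and apoptosis genes 5 fell, 0 rose and 41 were not called, 13 had a positive change, and the median was -0.06. The inflammatory caspase Casp4 was at 6.00, 6.19 and 6.31 with vehicle and at 5.41, 5.21 and 5.41 with rapamycin. It was detected on all vehicle and on no rapamycin arrays, and was at least 1.53-fold lower (adjusted p = 0.00141). Ripk3, a kinase of necroptosis, was at 7.89, 8.21 and 8.49 with vehicle and at 7.52, 7.45 and 7.41 with rapamycin (-0.74, SE 0.14, adjusted p = 0.00905). Its call ended without vehicle replicate 2 (0.056), and without replicates 2 and 3 it was at -0.43 (0.12). The mitophagy receptor Bnip3 (-0.50), Phlda3 (-0.49) and the inflammatory caspase Casp1 (-0.44) were called with all arrays. Bnip3 lost its call in the fits without vehicle replicate 2 (adjusted p = 0.12) and rapamycin replicates 1 (0.08) and 2 (0.11). Phlda3 and Casp1 kept their calls without vehicle replicate 1 and lost them without each of the other 5 arrays (0.051 to 0.16 and 0.069 to 0.098). Without vehicle replicates 2 and 3, Bnip3 was at -0.46 (0.12), Phlda3 at -0.29 (0.38) and Casp1 at -0.29 (0.288).

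Among 38 cytosolic heat shock proteins and chaperonin genes, 4 fell, 0 rose and 34 were not called (median -0.05). The list's fully kept calls were Hspa4l, a relative of the Hsp70 exchange factors that was at least 1.35-fold lower (adjusted p = 0.00401), and the small heat shock protein Hspb6. Hspb6 was at 8.64, 8.62 and 8.59 with vehicle and at 7.98, 8.21 and 8.0 with rapamycin (-0.55, SE 0.099, adjusted p = 0.00769), with no overlap of the groups, and at -0.57 (0.062) without vehicle replicates 2 and 3. Hspb1 (-0.50, adjusted p = 0.0455) lost its call when any of the 6 arrays was left out (0.059 to 0.17), and Hspb8 (-0.36, 0.0477) without any array but vehicle replicate 1 (0.10 to 0.15). With vehicle replicates 2 and 3 left out, they were at -0.65 (0.065) and -0.27 (0.35). Among 25 genes of antigen presentation, 3 fell, 0 rose and 22 were not called, 7 had a positive change, and the median was -0.20. The 3 were the chaperone calreticulin (Calr, -0.43) and the immunoproteasome subunits Psmb9 (-0.45) and Psmb10 (-0.40), and another Psmb10 probe (-0.35, adjusted p = 0.0567) was not called. All 3 calls were lost in the fits without vehicle replicate 2 (0.13, 0.083 and 0.094) and rapamycin replicates 1 (0.072, 0.082 and 0.069), 2 (0.091, 0.056 and 0.079) and 3 (0.10, 0.10 and 0.098), and that of Psmb9 also without vehicle replicate 3 (0.06). In the fit without vehicle replicates 2 and 3 they were at -0.30 (0.28), -0.34 (0.23) and -0.36 (0.18).

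Other falls belonged to no list. The ribosomal stalk protein Rplp2 was at 6.36, 6.54 and 6.82 with vehicle and at 5.59, 5.70 and 5.67 with rapamycin (-0.92, SE 0.12), and kept its call without each array. Its probe was dim, and its rapamycin values lay just above the lowest detected values of those arrays (5.54, 5.58 and 5.55). Tsc22d3, the leucine zipper protein that glucocorticoids are known to induce, was at 7.16, 7.05 and 7.18 with vehicle and at 6.07, 6.3 and 6.15 with rapamycin (-0.95, SE 0.099, adjusted p = 0.000334). The galectins Lgals1 and Lgals3, which bind beta-galactosides, fell by 0.65 (SE 0.096) and 0.60 (SE 0.097). Endosialin (Cd248), a surface protein of stromal cells, fell by 0.59 (SE 0.099), and Ms4a7 by 0.63 (SE 0.10). Tsc22d3, both galectins, Cd248 and Ms4a7 stayed called without each array. When vehicle replicates 2 and 3 were left out, Tsc22d3 and Lgals1 were called, and Lgals3 (-0.47, adjusted p = 0.084), Cd248 (-0.56, 0.063) and Ms4a7 (-0.53, 0.063) were not.

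Some genes were present on every array of 1 group and on none of the other. Of 20 called genes of this kind, the bounds ran from at least 1.03-fold to at least 2.34-fold. Those that appeared with rapamycin and held in all 6 fits were Lypd6b and Cables1. Lypd6b, of a family of membrane-anchored proteins, was at 5.17, 5.20 and 5.34 with vehicle and at 6.04, 5.91 and 6.05 with rapamycin, at least 1.37-fold higher (adjusted p = 0.00109). Those that disappeared and held were Ogn, Casp4, Hspa4l, Cbs, Trib3, Chac1, which degrades glutathione (at least 1.12-fold lower), and Dtx4, a ubiquitin ligase of the Notch pathway (at least 1.14-fold lower). An undetected probe has only this bound and may still have been expressed.

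Many processes held few or no calls. Of 58 lists with 1807 tested genes, 32 held at least 2 called genes and 15 held none, and 269 of the 391 called genes were in no list. Neither limma nor the methods' t-test called any of 59 mitochondrial ribosome and translation genes. Of these, 15 had a positive change, the median was -0.13, and 1 higher and 8 lower had an unadjusted p below 0.05. Under scaling to a common median the list's median was -0.31 and 11 were called lower, and without vehicle replicate 1, 3 fell. Neither test called any gene among 35 histone modifiers and chromatin remodellers (median -0.02, 8 at an unadjusted p below 0.05), 28 RNA polymerase subunits and general factors (-0.08, 6), 23 cytokine receptor and JAK-STAT genes (0.02, 3) or 11 nuclear receptors (0.07, 1). In the fit without vehicle replicate 1, limma called 3 higher and 4 lower in the first of these lists and 1 lower in each of the next 2. The median SE of 0.108 limits what 3 arrays per group could show, and a missing call is not a measured absence of change. Over all probes 1782 had an unadjusted p below 0.05.

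**Figure D3:**
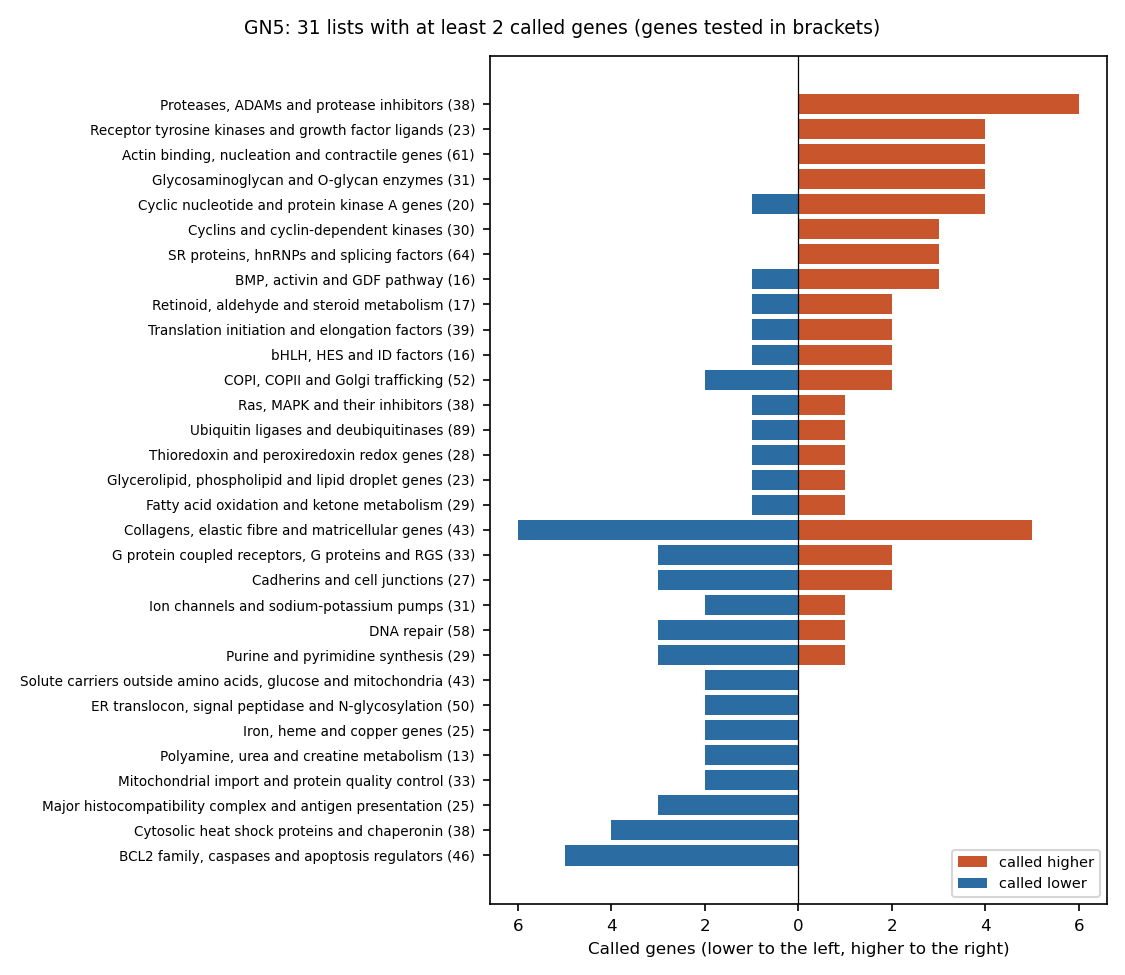
Number of genes called lower (left) and higher (right) with rapamycin in GN5 cells, for 31 of the 32 lists with at least 2 called genes (tested genes in brackets). Proteases had 6 rises and no fall, apoptosis genes 5 falls and no rise, and collagens and matricellular genes 5 rises and 6 falls. Over all genes 3.65% were called higher and 3.45% lower.

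The promoters of the called genes were searched for short motifs, since a shared element would be a feature that the array did not use. Sequences from 250 bases before to 50 bases after the start were taken from RefSeq (GRCr8), and 4682 of 5514 tested genes, 158 of 201 higher and 165 of 190 lower genes had one. Motifs were matched on both strands. The C/EBP-ATF response element (TGATGNAA), which ATF4 dimers are known to bind, was in 14 of the 165 lower promoters (8.49%) and in 3 of the 158 higher ones (1.90%). It was in 2.07% of the tested promoters and in 3.82% of all 27457 of the table. The 14 lower genes were Nupr1, Trib3, Chac1, Cars1, Yars1, Nars1, Iars1, Tars1, Aars1, Pck2, Jdp2, Herpud1, Slc7a1 and Pbx4. The 3 higher genes were Synrg, Rasl11b and Gadd45g. Gadd45g (0.64) stayed called without each array, and its match lay reversed and began 122 bases before the start. Jdp2, a bZIP repressor, Herpud1, of protein degradation at the endoplasmic reticulum, and the homeobox gene Pbx4 are shown with stress and synthetase genes because they are members that belong to different functions. The match is printed in capitals with up to 20 bases on each side.

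Nupr1 (chr1:190645929-190645976, minus strand): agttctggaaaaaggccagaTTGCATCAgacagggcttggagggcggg

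Trib3 (chr3:161275534-161275574, minus strand): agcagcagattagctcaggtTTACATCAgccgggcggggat

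Chac1 (chr3:126795944-126795991, plus strand): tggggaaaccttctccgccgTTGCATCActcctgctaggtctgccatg

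Iars1 (chr17:15193653-15193696, minus strand): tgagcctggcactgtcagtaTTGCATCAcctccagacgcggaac

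Tars1 (chr2:62114803-62114849, minus strand): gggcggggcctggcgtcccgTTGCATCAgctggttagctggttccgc

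Jdp2 (chr6:110993555-110993590, plus strand): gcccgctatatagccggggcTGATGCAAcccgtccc

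Herpud1 (chr19:10614864-10614911, minus strand): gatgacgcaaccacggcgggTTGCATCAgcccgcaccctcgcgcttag

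Pbx4 (chr16:19624008-19624055, minus strand): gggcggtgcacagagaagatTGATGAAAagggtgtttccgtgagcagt

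The sequences are written on the strand of the gene, so the element lies forward in Jdp2 and Pbx4 and reversed in the other 6. Its first base was 16 bases before the start in Jdp2 and 184 before it in Herpud1, the nearest and the farthest of these 8. Jdp2 was at 7.91, 8.06 and 7.98 with vehicle and at 7.57, 7.42 and 7.38 with rapamycin (-0.52, SE 0.099, adjusted p = 0.01). Its call ended without vehicle replicate 2 (0.059), rapamycin replicate 2 (0.056) or rapamycin replicate 3 (0.058), and it was at -0.45 (0.117) without vehicle replicates 2 and 3. Pbx4 was at least 1.21-fold lower (adjusted p = 0.0315), lost its call in the fits without vehicle replicate 2 (0.13) and rapamycin replicates 1 (0.11), 2 (0.10) and 3 (0.052), and was at -0.43 (0.15) without vehicle replicates 2 and 3.

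Among the rises, the TATA box (TATAAA), which places the start of transcription in genes of sharp promoters, was in 22 of 158 promoters (13.9%) against 6.64% of the tested promoters, 7.88% of those of lower genes (13 of 165) and 14.3% of all in the table. The counts take no account of position or strand. In some higher genes the match lay reversed, as in Cav1 and Fhl1, or far from the start, as in Edn1 (110 bases) and Sidt2 (204). Among lower genes it began 26 bases before the start in Gapdh and 30 in Sqstm1. Windows of 6 other higher genes with different functions, all with a forward match, are shown with the match in capitals.

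Prph (chr7:132097234-132097279, plus strand): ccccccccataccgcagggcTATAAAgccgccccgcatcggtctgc

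Adamts1 (chr11:38427429-38427474, minus strand): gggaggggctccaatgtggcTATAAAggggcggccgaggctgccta

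Cables1 (chr18:3351602-3351647, plus strand): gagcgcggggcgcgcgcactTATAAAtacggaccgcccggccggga

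Gadd45g (chr17:13530374-13530419, minus strand): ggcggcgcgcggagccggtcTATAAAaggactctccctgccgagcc

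Ccn1 (chr2:237225698-237225743, minus strand): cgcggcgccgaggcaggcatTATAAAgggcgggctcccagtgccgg

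Cxcl13 (chr14:13917928-13917973, minus strand): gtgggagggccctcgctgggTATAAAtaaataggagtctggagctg

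The match began 30 bases before the start in Cables1, 33 in Cxcl13, 34 in Ccn1 and 35 in Prph, and 48 and 70 bases before it in Gadd45g and Adamts1. The other 8 motifs are given for the higher, lower and tested promoters, and for all of the table in brackets. The TEAD motif (CATTCC), for which YAP target genes are known, was in 15.8% of higher, 12.7% of lower and 10.9% of tested promoters (13.9% of all). AP-1 (TGANTCA) was in 4.43%, 6.67% and 4.51% (7.33% of all), the cyclic AMP response element (TGACGTCA) in 3.80%, 3.03% and 3.70% (1.91%), and the sterol response element (TCACNCCAC) in 1.90%, 1.21% and 1.2% (1.13%). The E-box (CACGTG) was in 12.7%, 13.9% and 10.4% (6.65%), the antioxidant response element (TGACNNNGC) in 14.6%, 17.6% and 15.2% (12.2%), the CCAAT box (CCAAT) in 36.7%, 45.5% and 39.0% (37.7%), and the CArG box in 0.633%, 1.82% and 1.03% (1.64%). Among genes that stayed called without each array, 37 higher and 45 lower had a promoter. In these the C/EBP-ATF element was in 1 higher and 9 lower promoters, the TATA box in 10 and 7 (27.0% and 15.6%), the E-box in 8 and 6 (21.6% and 13.3%) and the sterol element in 3 and 0 (8.11% of the higher). AP-1 was in 2 and 5 (5.41% and 11.1%), TEAD in 3 and 5 (8.11% and 11.1%), the antioxidant element in 5 and 8, the CCAAT box in 14 and 20, and the cyclic AMP element and the CArG box in 1 and 1 each. The E-box and sterol shares of the higher genes thus lay further above the tested promoters here than among all called genes, and the TEAD share lay below. Matches can overlap, as an AP-1 or cyclic AMP element can share bases with the antioxidant element. A match says only that these letters are in the window, and these shares were not tested.

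**Figure D4:**
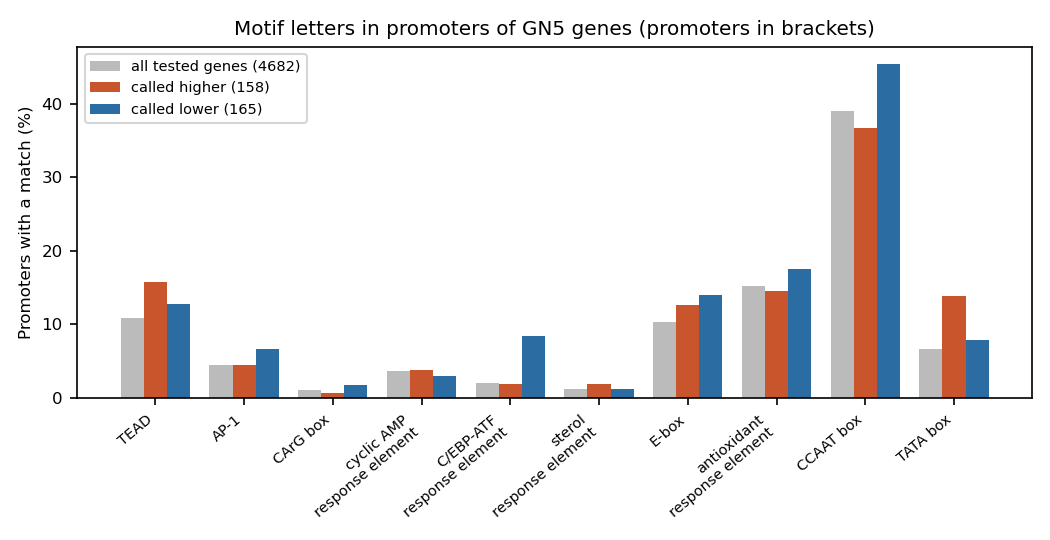
Share of promoters (percent, y axis) that held each of 10 motifs (x axis), for all tested genes and for genes called higher or lower with rapamycin in GN5 cells. The C/EBP-ATF element stands at 8.49% among lower genes against 2.07% of tested ones, and the TATA box at 13.9% among higher genes against 6.64%.

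The response of GN5 was compared with that of H5D by an interaction contrast over the 12 arrays. Of 8539 probes, 120 differed (1.41%), 63 with the GN5 change above that of H5D and 57 below. By gene 100 differed, of which 61 were also called in GN5, and 70 had opposite signs in the lines. The contrast picks genes whose changes differ, which favours opposite signs. These include changes near 0 in 1 line, as for Arhgap24 (0.94 in GN5 against -0.02 in H5D). They also include genes detected on no array of 1 line, such as Rnd1 and Ocln in H5D and Mmp3 and Aqp8 in GN5. The sign of such a gene in that line is that of an undetected probe. The 2 lines share no arrays, though all 12 were normalized together. Of the 391 genes called in GN5, 289 had the same sign in H5D. The same share over all tested genes is not given here, so this count has no background to be set against. Some of the 391, such as Rnd1, Ogn and Slc51a, were detected on no H5D array, and their sign in H5D is that of undetected probes. Without GN5 vehicle replicates 2 and 3, 14 probes differed, and 49 of the 120 were called in each of 12 fits that left out an array.

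Some differences were of genes called in GN5 with little change in H5D. Rnd1 rose by 1.11 in GN5 against -0.09 in H5D (difference 1.2, SE 0.16, adjusted p = 0.00224), Rab17 by 0.95 against -0.24 (1.19, SE 0.17, adjusted p = 0.00323) and Mgll by 0.83 against -0.19 (1.02, SE 0.17, adjusted p = 0.00809). Those 3 genes were detected on no H5D array, so their H5D changes are of undetected probes. Where both lines expressed the gene, Arhgap24 rose by 0.94 against -0.02 (0.96, SE 0.12, adjusted p = 0.00157) and Tsc22d3 fell by 0.95 against -0.01 (-0.95, SE 0.14, adjusted p = 0.00363). Slc51a and Ogn, with differences of -0.91 and -1.0, were detected in GN5 only. Without GN5 vehicle replicates 2 and 3 the calls of Rnd1, Rab17 and Arhgap24 stayed, and those of Mgll (0.78, adjusted p = 0.184), Tsc22d3 (-0.98, 0.062), Slc51a (-0.82, 0.082) and Ogn (-0.91, 0.064) ended.

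Among genes detected on all arrays of both lines with changes of opposite sign, those of Rgs2 and Id2 were called in both lines. Rgs2 fell by 0.49 in GN5 and rose by 0.73 in H5D (adjusted p = 0.00952 in H5D, difference -1.22, SE 0.19, adjusted p = 0.00546). Gchfr fell by 0.81 in GN5 against 0.35 in H5D, where it was not called (adjusted p = 0.108, difference -1.16, SE 0.16, adjusted p = 0.00244), and Id2 rose by 0.43 against -0.53 (adjusted p = 0.00656 in H5D, difference 0.95, SE 0.13, adjusted p = 0.00224). Lgals1 fell by 0.65 against 0.34, which was not called in H5D (adjusted p = 0.0657, difference -0.99, SE 0.14, adjusted p = 0.00232). These 4 differences were called in all 12 fits. Without GN5 vehicle replicates 2 and 3, Rgs2 (-1.37, adjusted p = 0.041) and Gchfr (-1.16, 0.041) stayed called, and Id2 (0.95, 0.051) and Lgals1 (-0.92, 0.064) did not. The largest difference was of Ccn2, a matricellular YAP target. It was at 13.76, 13.73 and 13.75 with vehicle and at 13.84, 13.73 and 13.67 with rapamycin in GN5, where the groups overlapped (0.00, SE 0.094), against 1.56 in H5D (-1.56, SE 0.16, adjusted p = 0.000601). Its relative Ccn1 rose by 0.97 in GN5 (SE 0.11).

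**Figure D5:**
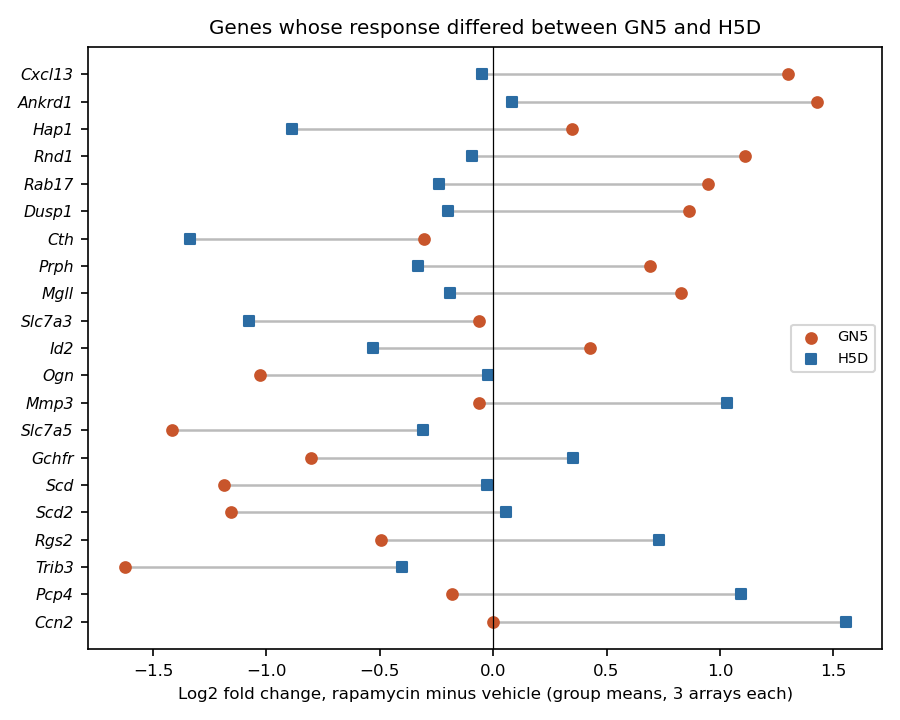
Log2 fold change with rapamycin (x axis) in GN5 (circles) and H5D (squares) for the 10 genes with the largest called difference in each direction, and for Id2. Rgs2, Gchfr and Id2 lie on opposite sides of 0, and Ccn2 lies at 0.00 in GN5 and 1.56 in H5D.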

How the data were processed

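Total RNA from 12 cultures was hybridised to Illumina RatRef-12 BeadChips. Per the file headers, the deposited bead summary held a scanner intensity for each probe, not normalized, with its detection p-value. The authors also deposited a value table of quantile-normalized intensities from BeadStudio on the linear scale, analysed in Partek 6.3 per the submitters' processing notes, which served as an alternative. Its column medians were 80.48 to 80.57, and its ranks matched the scanner values.

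Here neqc of limma 3.58.1 (R 4.3.3) estimated the background with the deposited detection p-values, added an offset of 16, and gave quantile-normalized log2 values over the 12 arrays. Linear models with moderated variances (lmFit, eBayes, two-sided) were fitted to the 6 GN5 arrays, and the difference from H5D to all 12. The limma fit of the GN5 arrays was tested on simulated data with known changes. Alternatives included the methods' t-test per probe on the same values, other scalings and filters, and leaving out arrays. Where no array of the dimmer group detected a probe, the fold is a bound: the brighter mean against the higher, per array, of its own value and the lowest detected value. Of 22523 probes 13793 had 1 gene symbol, and 13752 were updated through the GRCr8 table. The number of arrays limits the precision.

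Genes were named from the 30 largest called changes in each direction, up to 4 called genes of each list with at least 2, genes detected in 1 group only, and the 10 largest differences in each direction. The prose leaves out many of these, a choice made after their values were seen: most genes of stress, serine and amino acid supply and glycolysis, Ankrd1, Dusp1, Ocln, Rsrp1, Ak4, Eif4ebp1, Ifi27l2b, Scd and Scd2 among the largest changes, and many list genes and genes detected in 1 group. Some others were named after their values were seen. The comparisons, lists and motifs were chosen with earlier results of these data known. Of 83 genes with several tested probes, those with probes that differed in call included Axl, Cav1, Ppid, Psmb10, Sqstm1, Tpm3 and Txn1. The result of 1 list is not reported here.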

Additional observations from a re-analysis of the deposited data

Results flagged for a closer look

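Named genes of the GN5 comparison whose response differed from that of H5D in the interaction contrast over 12 arrays (limma, adjusted p below 0.05) were singled out, 48 in all. Values are the GN5 minus the H5D log2 fold change.

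Among genes of signalling and transcription the change was higher in GN5 for Ankrd1 (1.34), Cxcl13 (1.35), Rnd1 (1.2), Rab17 (1.19), Dusp1 (1.06), Bdnf (1.02), Arhgap24 (0.96), Id2 (0.95), Atoh8 (0.92), Fst (0.90), Cables1 (0.76), Lypd6b (0.76) and Rasl11b (0.62). It was higher too for the structural, matrix and secreted genes Ocln (1.01), Prph (1.02), Ltbp2 (0.97), C4b (0.94), Tagln (0.78), Fhl1 (0.67) and Pcsk6 (0.57), for the enzymes and transporters Cth (1.03), Mgll (1.02), Slc7a3 (1.02) and Car3 (0.73), and for Hap1 (1.23), Rbm25 (0.75) and Rsrp1 (0.72).

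The GN5 change was lower for Ccn2 (-1.56), Pcp4 (-1.27), Rgs2 (-1.22), Trib3 (-1.22), Mmp3 (-1.09), Ogn (-1.0), Tsc22d3 (-0.95), Ifi27l2b (-0.76), Creb3l1 (-0.75) and Eif4ebp1 (-0.74). It was also lower for the enzymes Scd2 (-1.21), Scd (-1.16), Aldh18a1 (-0.92), Ak4 (-0.80), Chac1 (-0.79), Mthfd1l (-0.71) and Psph (-0.63), for the regulator Gchfr (-1.16) and for the transporters Slc7a5 (-1.11), Slc51a (-0.91) and Slc40a1 (-0.76). Pcp4, Mmp3, Slc7a3 and Cth were not tested in GN5 alone, since they were not detected on all 3 arrays of either GN5 group. No H5D array detected Ak4, Atoh8, Car3, Chac1, Cxcl13, Fhl1, Fst, Ltbp2, Lypd6b, Mgll, Ocln, Ogn, Rab17, Rnd1, Slc51a, Tagln or Trib3, so their differences are set against probes not above background in H5D. C4b, Cables1, Prph, Scd and Slc7a3 were detected on some H5D arrays only. Medium and line cannot be told apart here.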

How the results depend on the processing

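The GN5 count of 515 was 592 with the deposited value table, 495 in a fit over 12 arrays, 515 with normalization over the 6 GN5 arrays or a fold limit of 1.2, and 476 with a stricter filter. It moved to 857 with a common median, 233 with no filter, 1073 with array weights and 38 with the methods' t-test and their fold limit after adjustment (976 before). Leaving out 1 array gave 164 to 934, and leaving out vehicle replicates 2 and 3 gave 156. The difference from H5D, 120 probes, was 134 with the value table and 92 with no filter, and moved to 252 with a common median (16 higher, 236 lower, median -0.29), 46 with a stricter filter and 14 without vehicle replicates 2 and 3. Leaving out 1 array gave 58 to 139. With the replicate number as a block the counts were 330 and 40. The numbers were not taken to pair the samples, since deviations of same-numbered arrays correlated at -0.17, 0.11 and -0.22, and not every array correlated best with its own number. No named gene reversed its direction under an alternative. For GN5 genes whose groups did not overlap, leaving out arrays could not have reversed it. Of 151 named genes of GN5, 71 were called without each array, and 64 without vehicle replicates 2 and 3. The number of called genes in a list moved by more than 1.5 times in 1 of 43 lists with the median probe of a gene, in 24 without vehicle replicate 1 and in 36 without replicates 2 and 3. The causes were not tested. Dim probes lie near the background, which limits their folds.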
